A study of Mus musculus with 6 samples.

Results

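Edits per read (EPR) was followed for the mouse ubiquitin-conjugating enzymes and ubiquitin-specific proteases, that is, for the protein-coding genes whose symbol begins with *Ube2* and a letter or with *Usp* and a digit. The rule was applied to the symbols of GENCODE mouse release 21 and found 93 genes, 37 with *Ube2* symbols and 56 with *Usp* symbols, among the 31053 genes in the deposited values. The values come from 6 bulk RNA-seq libraries of wild-type C57BL/6J primary cortical neurons, prepared from embryos at embryonic day 18. All cultures were infected with adeno-associated virus (AAV) at 6 days in vitro, received 1 µg/ml doxycycline for 48 h and were collected at 14 days in vitro. They differed in the Ribo-STAMP construct, RPL10A-STAMP in 3 libraries and RPL22-STAMP in the other 3. Ribo-STAMP couples a ribosomal protein to the cytidine deaminase APOBEC1, which converts C to U in mRNA near the ribosome, and EPR divides the edits of a gene by its reads. Mouse RPL10A was joined to the C terminus of the deaminase and RPL22 to its N terminus. In both vectors a synapsin promoter drove the doxycycline-dependent transactivator, a design meant for expression in neurons. Floxuridine had been added at 3 days in vitro to both groups. The study's methods describe biological replicates and its results text technical ones, and the labels name no separate cultures, so the p-values measure the spread between these libraries, which may be technical. Libraries with unfused APOBEC1 were not analysed here, so background editing is not subtracted from any value below.

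Ubiquitin is passed from an activating enzyme (E1) to a conjugating enzyme (E2), and then, with a ligase (E3), to a substrate. The *Ube2* genes encode the E2 step, in which ubiquitin or a related modifier is held on an active-site cysteine, and the choice of E2 influences the type of chain that is built. The *Usp* genes encode the largest family of deubiquitinases, cysteine proteases that remove or trim ubiquitin. In neurons these enzymes act on synaptic receptors and scaffolds, on endosomal sorting and on protein quality control. A few symbols match the rule without such an enzyme behind them: *Usp6nl* encodes a GTPase-activating protein for Rab proteins, and *Usp39* encodes a spliceosome component with an inactive protease fold.

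*Ube2a* (GRCm38, chrX:36873900-36884222, plus strand) and *Ube2b* (chr11:51985497-52000762, minus strand) are the mammalian copies of yeast RAD6, and *Ube2b* was called while *Ube2a* was not. Coding bases 232 to 321 of each are shown, read from the GENCODE transcripts, because this stretch begins at the His-Pro-Asn codons that precede the E2 active site. Capitals mark the bases that differ between the copies.
Ube2a: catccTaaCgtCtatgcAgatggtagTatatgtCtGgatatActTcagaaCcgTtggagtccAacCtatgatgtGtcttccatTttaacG
Ube2b: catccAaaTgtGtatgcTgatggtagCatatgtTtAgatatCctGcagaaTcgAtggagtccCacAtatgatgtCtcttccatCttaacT
Of these 90 bases 16 differ, and none of the differences changes the encoded residue under the standard code, although the encoded proteins differ outside this stretch. Over the whole coding sequence, 356 of 459 bases (77.6%) were identical, against 83.8% of aligned coding bases for *Ube2d2a* and *Ube2d3*, a closer pair whose EPR ratio overlapped between the constructs. The transcripts were also close in GC content (42.1% for *Ube2a* and 42.2% for *Ube2b*) and in length (1732 and 1792 bases).

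Between the constructs, the members split in both directions. Of the 93 members, 69 (28 *Ube2* and 41 *Usp*) had an EPR above 0 in all 6 libraries and were tested with limma in a fit over the 8046 genes edited in all 6. In that fit each library was first divided by its median EPR over these genes and brought to a common median, and log2(EPR + 0.01) was compared, so that fold changes are relative to the library's other genes and a gene with a low EPR shows less than its true ratio. A member is called here where the Benjamini-Hochberg adjusted p over all 8046 genes was under 0.05. Of the 69 tested members, 9 (13.0%) were called higher with RPL10A-STAMP, against a background of 8.51% of all tested genes. These were *Usp53*, *Usp34*, *Ube2q2*, *Usp25*, *Usp48*, *Usp9x*, *Ube2v2*, *Usp46* and *Ube2q1*. In the other direction 5 of 69 (7.25%) were called higher with RPL22-STAMP, against a background of 5.77%, namely *Usp39*, *Usp11*, *Ube2b*, *Ube2m* and *Ube2ql1*. Both shares lay near their backgrounds. All 14 called members had non-overlapping libraries, as deposited and after the scaling. After the scaling, 19 of the 69 members (27.5%) had every RPL10A-STAMP library above every RPL22-STAMP library, against 20.0% of all tested genes, and 8 (11.6%) had the reverse, against 17.1%. The median log2 fold change (RPL10A-STAMP over RPL22-STAMP) was 0.13 over the 69 members and -0.01 over all tested genes. EPR is a per-read quantity of a whole well, so a larger share of cells with the construct and more edits per molecule in each cell cannot be told apart.

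**Figure D1:**
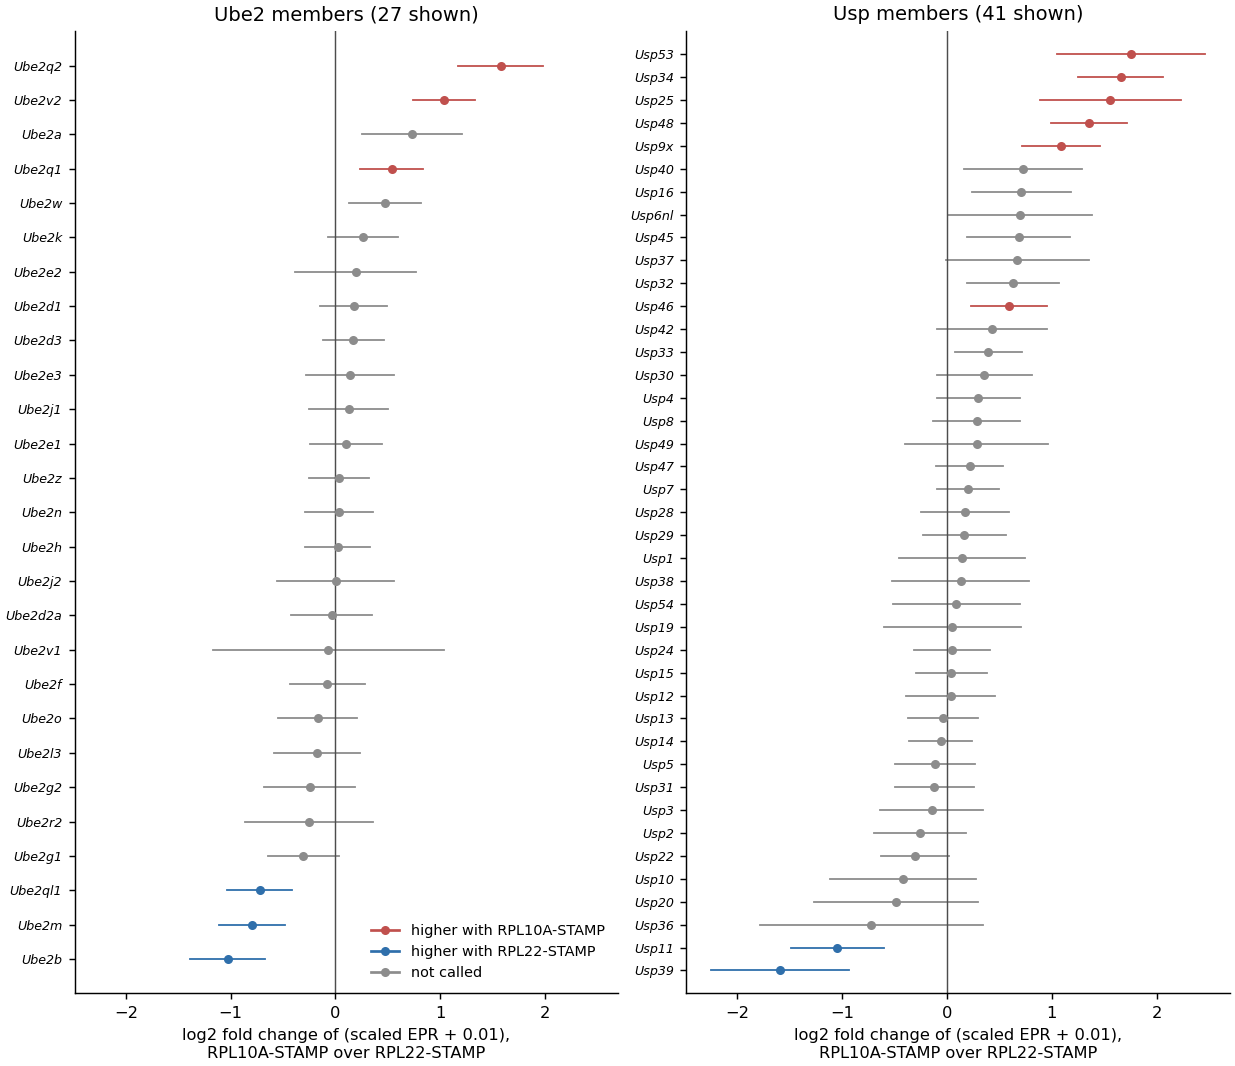
log2 fold change of (scaled EPR + 0.01), RPL10A-STAMP over RPL22-STAMP, for 27 of the 28 *Ube2* members and the 41 *Usp* members edited in all 6 libraries, with 95% intervals from limma (3 libraries per construct). Red points were called higher with RPL10A-STAMP (9 members) and blue points higher with RPL22-STAMP (5 members), and the others are in grey.

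Among the E2 genes, the libraries of the RAD6 copies were separate in opposite directions. *Ube2b* had EPRs of 0.0378, 0.0449 and 0.0393 with RPL10A-STAMP, against 0.0668, 0.0846 and 0.0665 with RPL22-STAMP. Every RPL22-STAMP library lay above every RPL10A-STAMP library. Its log2 fold change was -1.03 (SE 0.15, limma adjusted p = 0.00777). Over 16 alternative limma fits its adjusted p ranged from 0.00613 to 0.0637, and the call was lost without the division by the library median. *Ube2a* had EPRs of 0.0485, 0.0495 and 0.0354 with RPL10A-STAMP, against 0.0167, 0.0175 and 0.0164 with RPL22-STAMP, so its libraries were separate in the other direction. Its log2 fold change of 0.73 (SE 0.20) did not pass the threshold (limma adjusted p = 0.0560), and over 16 alternative limma fits its adjusted p ranged from 0.0154 to 0.238.

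*Ube2q2* (chr9:55148854-55207529), an E2 of the less studied UBE2Q branch, showed the largest E2 difference. Its EPRs were 0.0406, 0.0803 and 0.0733 with RPL10A-STAMP, against 0.0076, 0.0113 and 0.0120 with RPL22-STAMP. The mean EPRs stood in a ratio of 6.29, with a log2 fold change of 1.58 (SE 0.17, limma adjusted p = 0.00450). Its paralog *Ube2q1* (chr3:89773616-89784000) was at 0.0206, 0.0298 and 0.0330 against 0.00891, 0.0145 and 0.0123. It went the same way by less, with a log2 fold change of 0.54 (SE 0.13, limma adjusted p = 0.0338). *Ube2ql1* (chr13:69702832-69739889), which is related to this branch, was higher with RPL22-STAMP. Its EPRs were 0.0271, 0.0286 and 0.0328 with RPL10A-STAMP, against 0.0379, 0.0462 and 0.0447 with RPL22-STAMP, a log2 fold change of -0.72 (SE 0.13, limma adjusted p = 0.0160).

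UBE2V proteins lack the active-site cysteine and pair with UBE2N to build chains linked through Lys63 of ubiquitin. *Ube2v2* (chr16:15552077-15595773) had EPRs of 0.0510, 0.0615 and 0.0598 with RPL10A-STAMP, against 0.0145, 0.0194 and 0.0169 with RPL22-STAMP. The groups were far apart relative to their spread, with a log2 fold change of 1.04 (SE 0.13, limma adjusted p = 0.00472). The catalytic partner *Ube2n* was at 0.0267, 0.0414 and 0.0342 against 0.0199, 0.0276 and 0.0280, which overlapped, and was not called (limma adjusted p = 0.893). *Ube2v1*, the other inactive partner, was the sole member with an EPR above 1, in every library (2.60 to 8.0). Its annotated exons share 61.5% of their bases with the readthrough gene *Gm20431*, which is listed at 0, and its value was not called (limma adjusted p = 0.939).

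Of the E2s for NEDD8, *Ube2m* (chr7:13035120-13038275), which transfers NEDD8 to cullin ligases, was called. Its EPRs were 0.00554, 0.00905 and 0.0114 with RPL10A-STAMP, against 0.0130, 0.0211 and 0.0194 with RPL22-STAMP. The lowest RPL22-STAMP library was just above the highest RPL10A-STAMP library, and the log2 fold change was -0.79 (SE 0.13, limma adjusted p = 0.0126). *Ube2f*, the other NEDD8 E2, was not called (limma adjusted p = 0.764). None of the 6 tested broad-acting UBE2D and UBE2E genes was called by limma, and their log2 fold changes ran from -0.03 to 0.19. At an unadjusted p under 0.05 there were 0 of 6 by limma and 1 by the test of the study's methods on unscaled EPR. Over all 8046 tested genes these counts were 2486 and 1996. The shares called over all tested genes were 8.51% and 5.77% in the 2 directions, so 0 of 6 lies near the background. The 6 tested genes of Lys48 chain building and endoplasmic reticulum quality control also gave no call (0 by limma and 2 by the methods' test at an unadjusted p under 0.05), with log2 fold changes from -0.31 to 0.26. Among them *Ube2k* had mean EPRs of 0.0238 ± 0.00294 (SD, n = 3) with RPL10A-STAMP, against 0.0137 ± 0.00118 (SD, n = 3) with RPL22-STAMP. *Ube2l3*, an E2 that works with HECT and RBR ligases such as parkin, had mean EPRs of 0.0390 ± 0.00378 and 0.0346 ± 0.00166 (SD, n = 3 each) and was not called.

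**Figure D2:**
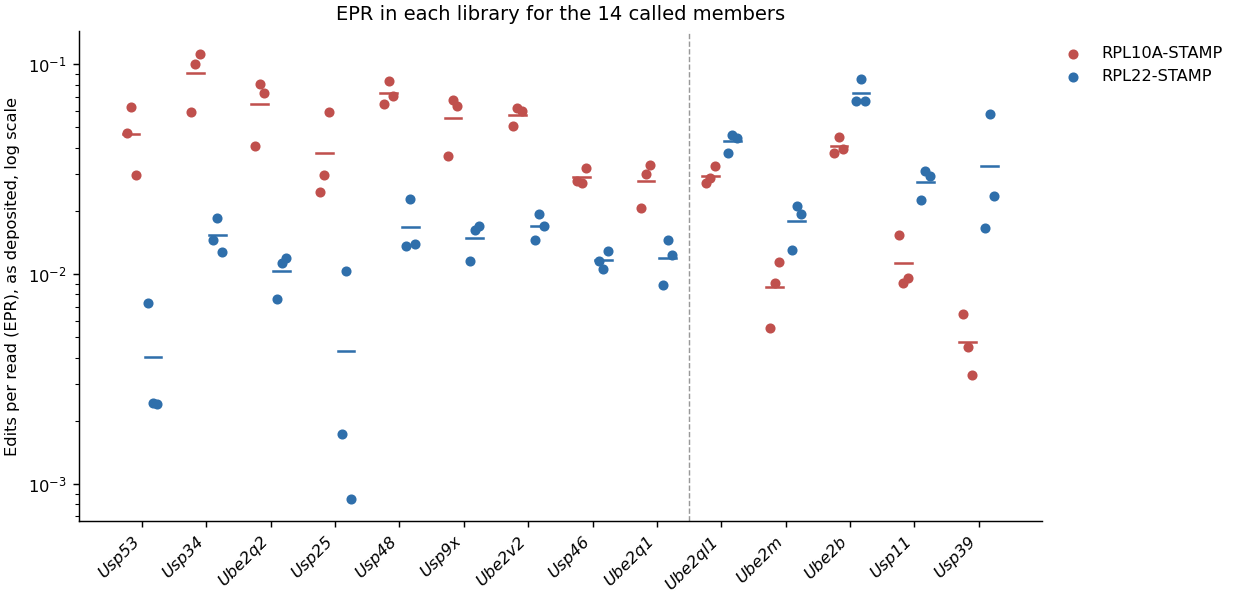
EPR as deposited (log axis) in each library for the 14 called members, ordered by log2 fold change; points are libraries, horizontal bars are the means of 3, and the dashed line separates the 9 members higher with RPL10A-STAMP from the 5 higher with RPL22-STAMP. In no member do the red and blue points overlap, and *Usp25*, *Usp53* and *Usp39* have the widest spread within a construct.

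Of the *Usp* genes, 6 were called higher with RPL10A-STAMP. *Usp53* (chr3:122931493-122984510), whose product is found at cell junctions, had EPRs of 0.0472, 0.0628 and 0.0296 with RPL10A-STAMP, against 0.00725, 0.00244 and 0.00239 with RPL22-STAMP. The means stood in a ratio of 11.5, and the log2 fold change was 1.75 (SE 0.30, limma adjusted p = 0.0129). *Usp34* (chr11:23306895-23490560), a very large protease that stabilises axin in Wnt signalling, had EPRs of 0.0589, 0.0998 and 0.112 against 0.0145, 0.0186 and 0.0128. It gave a log2 fold change of 1.66 (SE 0.17, limma adjusted p = 0.00444). *Usp48* (chr4:137593755-137658537), a mainly nuclear protease, was at 0.0643, 0.0835 and 0.0706 against 0.0137, 0.0227 and 0.0139. Its log2 fold change was 1.35 (SE 0.15, limma adjusted p = 0.00453), and the constructs were well separated. *Usp9x* (chrX:13071498-13173328), the X-linked protease required for neuronal development, had EPRs of 0.0364, 0.0673 and 0.0632 against 0.0116, 0.0163 and 0.0169. Its log2 fold change was 1.09 (SE 0.16, limma adjusted p = 0.00718). In *Usp9x*, 39.2% of the transcript's bases recur elsewhere in the genome in exact runs of at least 50 bases, so its reads may be shared with another locus; in every other tested member this share was at most 8.85%.

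*Usp25* (chr16:77013706-77116780), a protease of endoplasmic reticulum quality control and inflammatory signalling, had EPRs of 0.0246, 0.0298 and 0.0593 with RPL10A-STAMP, against 0.00172, 0.0103 and 0.000847 with RPL22-STAMP. The RPL22-STAMP libraries differed widely among themselves, yet all lay below the RPL10A-STAMP libraries, and the log2 fold change was 1.56 (SE 0.29, limma adjusted p = 0.0156). *Usp46* (chr5:73998453-74068431) is activated by the WD-repeat protein WDR48 and removes ubiquitin from AMPA receptors. Its EPRs were 0.0279, 0.0271 and 0.0320 against 0.0116, 0.0106 and 0.0129. The log2 fold change of 0.59 (SE 0.15) was just past the threshold (limma adjusted p = 0.0462). The call of *Usp34*, *Usp48* and *Ube2q2* held in each of 16 alternative limma fits, that of *Usp46* in 3 and that of *Ube2q1* in 6.

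The *Usp* genes called higher with RPL22-STAMP were *Usp39* and *Usp11*. *Usp39* (chr6:72318678-72345184), the spliceosome component, had EPRs of 0.00642, 0.00448 and 0.00331 with RPL10A-STAMP, against 0.0165, 0.0580 and 0.0237 with RPL22-STAMP. The mean with RPL22-STAMP was 6.90 times that with RPL10A-STAMP, and the log2 fold change was -1.59 (SE 0.28, limma adjusted p = 0.0140), the lowest of any member. *Usp11* (chrX:20703906-20720539), which acts in DNA repair, was at 0.0154, 0.00902 and 0.00958 against 0.0226, 0.0309 and 0.0294. Its log2 fold change was -1.05 (SE 0.19, limma adjusted p = 0.0151). Several calls in this direction were lost without RPL10A-STAMP replicate 2 or replicate 3, at limma adjusted p from 0.0505 to 0.0683. Over all genes, the calls higher with RPL22-STAMP fell from 464 to 175 and 142 in these fits. When any other library was left out, all 5 members kept their calls. Of the 5 members called higher with RPL22-STAMP, *Ube2b* alone remained when RPL10A-STAMP replicate 2 was left out (1 call), and *Ube2b* and *Ube2m* when RPL10A-STAMP replicate 3 was left out (2 calls).

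Other *Usp* genes were mostly not called. None of 6 proteases of the proteasome, endosome and free chains was called, with log2 fold changes from -0.25 to 0.28. At an unadjusted p under 0.05 there were 0 by limma and 2 by the methods' test. Over all 8046 tested genes these counts were 2486 and 1996. The shares called were 8.51% and 5.77% in the 2 directions, so groups this small without a call lie near the background. *Usp14*, the protease on the proteasome's regulatory particle, had an EPR of 0.0144 ± 0.00112 with RPL10A-STAMP, against 0.0119 ± 0.00111 with RPL22-STAMP (SD, n = 3 each). Its 95% interval of the log2 fold change, -0.36 to 0.24, included 0. *Usp8*, which acts on endosomal cargo, had means of 0.0170 ± 0.00114 and 0.00948 ± 0.00424 (SD, n = 3 each), an interval of -0.13 to 0.70. *Usp7*, which stabilises MDM2, had means of 0.00838 ± 0.00341 and 0.00426 ± 0.00075 (SD, n = 3 each), an interval of -0.10 to 0.49. *Usp30*, which opposes parkin at the mitochondrial outer membrane, had means of 0.0139 ± 0.00178 and 0.00707 ± 0.00441 (SD, n = 3 each), an interval of -0.10 to 0.81. Of 4 tested histone deubiquitinases none was called (1 by either test at an unadjusted p under 0.05), with log2 fold changes from -0.31 to 0.71. In the wide group of large and other proteases, 4 of 18 tested were called (*Usp53*, *Usp34*, *Usp48* and *Usp9x*, described above), all higher with RPL10A-STAMP (22.2%, against 8.51% of all tested genes), and the median log2 fold change was 0.32 (-0.01 over all tested genes).

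Paralogs within 1 library share its depth and its overall editing, so the log2 ratio of their EPRs needs no scaling between libraries. For 11 pairs this ratio was compared between the constructs with a two-sided exact permutation test, in which 3 libraries against 3 cannot give a p below 0.10. *Ube2a* over *Ube2b* was 0.36, 0.14 and -0.15 in the RPL10A-STAMP libraries and -2.0, -2.27 and -2.02 in the RPL22-STAMP libraries. The copies were thus edited about equally with RPL10A-STAMP, while *Ube2b* was well above *Ube2a* with RPL22-STAMP, a difference of 2.21 on the log2 scale (exact p = 0.10). *Usp4* over *Usp11*, a pair of paralogs with a shared domain layout, was -0.64, 0.98 and -0.08 against -2.03, -2.56 and -2.17, a difference of 2.34 (exact p = 0.10). *Usp25* over *Usp28* was 2.44, 1.60 and 2.16 against -1.90, 1.21 and -2.11, a difference of 3.00 (exact p = 0.10), in which RPL22-STAMP replicate 2 lay near the RPL10A-STAMP libraries.

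In 3 further pairs the constructs did not overlap and the ratio fell with RPL10A-STAMP relative to RPL22-STAMP. The difference was -1.39 for *Ube2q1* over *Ube2q2*, -1.45 for *Ube2v1* over *Ube2v2* and -0.82 for *Usp12* over *Usp46* (exact p = 0.10 each). In each of these the first gene had the higher transcript GC content (51.9% and 47.9%, 52.2% and 35.1%, 49.6% and 43.6%). *Usp20* and *Usp33*, whose ratio overlapped, also differed in GC content (55.9% and 43.0%). The part of GC content in these ratios was not tested. *Usp12* and *Usp46* are both activated by WDR48. In the other 5 pairs, *Ube2d2a*/*Ube2d3*, *Ube2e1*/*Ube2e3*, *Usp5*/*Usp13*, *Usp4*/*Usp15* and *Usp20*/*Usp33*, the constructs overlapped, with exact p from 0.20 to 0.80. After adjustment, the exact permutation test gave p = 0.183 for each of the 6 non-overlapping pairs. Each of these 6 pairs holds a member called by limma, and none of the other 5 pairs does. The ratios use the same EPR values as those calls, so they are no independent evidence for them. How often such ratios separate in other gene pairs was not tested. *Usp20*/*Usp33* had the widest spread, from -4.23 to -0.65 with RPL10A-STAMP, where *Usp20* had an EPR of 0.00131 in replicate 1.

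**Figure D3:**
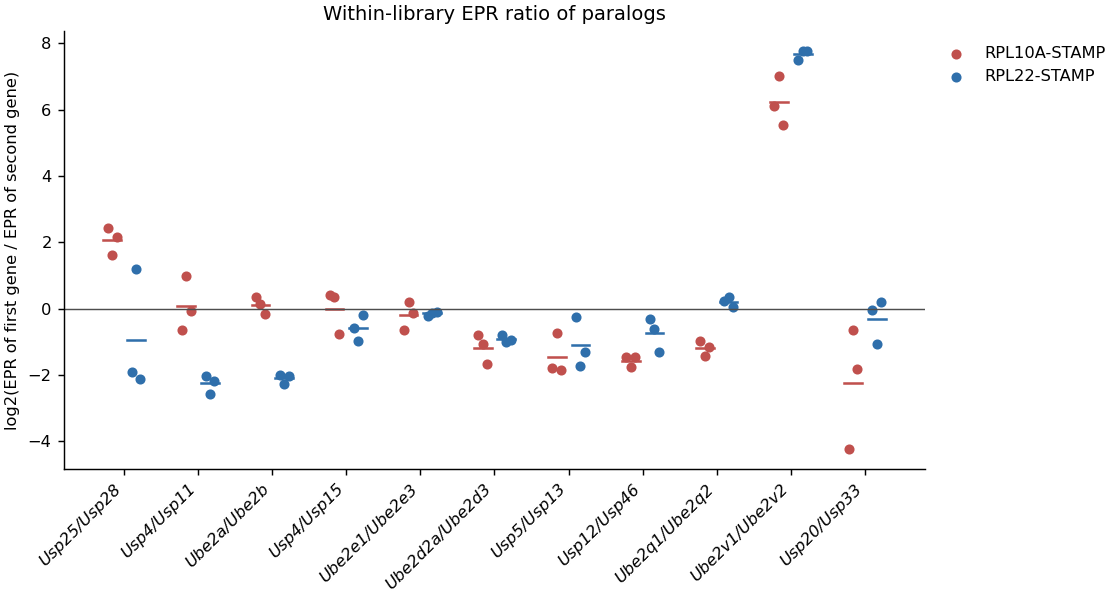
log2 of the EPR ratio of the first to the second gene of 11 paralog pairs in each library (points; bars are the means of 3), ordered by the difference between the constructs. For *Ube2a*/*Ube2b* the RPL10A-STAMP libraries lie between -0.15 and 0.36 and the RPL22-STAMP libraries between -2.27 and -2.0; in 5 of the 11 pairs the constructs overlap.

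Levels within the families covered a wide range in every library. The median EPR of the 69 members was 0.0160, 0.0199 and 0.0180 with RPL10A-STAMP, against 0.00929, 0.0136 and 0.0123 with RPL22-STAMP, from 1.02 to 1.34 times the median of all genes edited in all 6. The *Ube2* median (0.0132 to 0.0225) was above the *Usp* median (0.00696 to 0.0169) in each of the 6 libraries. By geometric mean over the 6 libraries, the highest members were *Ube2v1*, *Ube2b*, *Ube2d3*, *Ube2l3* and *Usp34*, but the order differed between the constructs. With RPL10A-STAMP it ran *Ube2v1*, *Usp34*, *Usp48*, *Ube2q2* and *Ube2v2*, and with RPL22-STAMP *Ube2v1*, *Ube2b*, *Ube2ql1*, *Ube2d3* and *Ube2l3*. *Usp34* ranked 2 of 69 in the first order and 19 in the second, and *Ube2b* ranked 10 and 2. *Ube2v1* ranked 1 in both, but its EPR is above 1 and 61.5% of its exon bases are shared with *Gm20431*, so its place is uncertain. *Ube2d3* (ranks 7 and 4) had an EPR of 0.0536 ± 0.0101 with RPL10A-STAMP, against 0.0354 ± 0.00621 with RPL22-STAMP (SD, n = 3 each). The lowest were *Usp28*, *Usp47*, *Usp7*, *Usp36* and *Usp5*, and *Usp5*, which disassembles free ubiquitin chains, had the lowest geometric mean. Its EPRs were 0.00256, 0.00824 and 0.00310 with RPL10A-STAMP, against 0.00530, 0.00413 and 0.00332 with RPL22-STAMP. *Usp36*, a nucleolar protease, ran from 0.00126 to 0.0243 in the RPL22-STAMP libraries alone, so the order among these 5 is within their spread. EPR is not corrected for the number of editable C bases in a transcript.

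Of the 24 members that were not tested, 18 were listed at 0 in all 6 libraries, 7 of them *Ube2* and 11 *Usp* genes. They include genes of dividing cells such as *Ube2c*, the initiating E2 of the anaphase-promoting complex, and the interferon-induced ISG15 protease *Usp18*, both named after their values were seen. The remaining 6 were edited in some libraries. Among them was *Ube2s*, also an E2 of the anaphase-promoting complex and also named after its values were seen. Its EPRs were 0.0198, 0.06 and 0 with RPL10A-STAMP, against 0.0146, 0.0121 and 0 with RPL22-STAMP. *Ube2l6*, the E2 for ISG15, was above 0 in 2 RPL10A-STAMP libraries and listed at 0 throughout RPL22-STAMP. *Usp50* was above 0 in RPL22-STAMP replicate 2 alone (EPR of 0.231) and at 0 throughout RPL10A-STAMP. The reads behind these values are unknown, so a 0 may reflect few reads, few edits or both.

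The fold changes of the members were ordered along the base composition of their transcripts. Spearman's rho between the log2 fold change and transcript GC content was -0.52 over the 69 members, which share their libraries, and -0.47 over 8039 genes with a GC value. With GC under 45%, 5 of 23 members (21.7%) were called higher with RPL10A-STAMP, against 20.5% of all genes in that class, and 1 (4.35%) higher with RPL22-STAMP, against 1.49%. With GC of 50% or more, 1 of 24 members (4.17%) was called higher with RPL10A-STAMP, against 1.49% of all genes in the class, and 4 (16.7%) higher with RPL22-STAMP, against 9.82%. Within single libraries, rho between EPR and GC over the members was -0.43, -0.44 and -0.52 with RPL10A-STAMP, against -0.08, -0.05 and 0.04 with RPL22-STAMP. The rank relation was thus seen in the RPL10A-STAMP libraries and was near 0 in the RPL22-STAMP libraries, as it was over all genes (-0.31 to -0.35 and -0.02 to 0.04). The share of C bases that follow A or T, the neighbours APOBEC1 favours, had a rho of 0.50 with the log2 fold change over the 69 members.

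The first 90 coding bases of the members with the lowest and the highest GC content are shown to make this contrast visible, with every C that follows A or T in capitals.
Ube2v2: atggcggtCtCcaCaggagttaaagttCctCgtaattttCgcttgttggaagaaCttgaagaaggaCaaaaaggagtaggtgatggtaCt
Ube2m: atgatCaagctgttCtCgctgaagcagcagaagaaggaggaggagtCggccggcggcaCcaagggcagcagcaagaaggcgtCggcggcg
*Ube2v2* (transcript GC 35.1%) had 9 such bases among 13 C in this stretch, and 62.3% of the C over its whole transcript followed A or T. *Ube2m* (transcript GC 63.4%) had 6 among 21 C, and 29.7% over its transcript. Over the whole coding sequence the shares were closer, 56.6% for *Ube2v2* and 47.2% for *Ube2m*, so the stretches shown overstate the coding contrast. When the trend with GC was removed from each library, *Ube2v2*, *Ube2m*, *Ube2ql1* and *Usp46* lost their calls (limma adjusted p = 0.0610, 0.134, 0.157 and 0.204). *Ube2g1*, from the group of Lys48 chain building and named after its values were seen, came to be called higher with RPL22-STAMP. Its log2 fold change in that fit was -0.66 (limma adjusted p = 0.0351). *Ube2b* was called with a log2 fold change of -1.32 in that fit (limma adjusted p = 0.00863), and *Ube2a* was at 0.43 (limma adjusted p = 0.238). Whether base composition has a part in the differences was not tested.

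**Figure D4:**
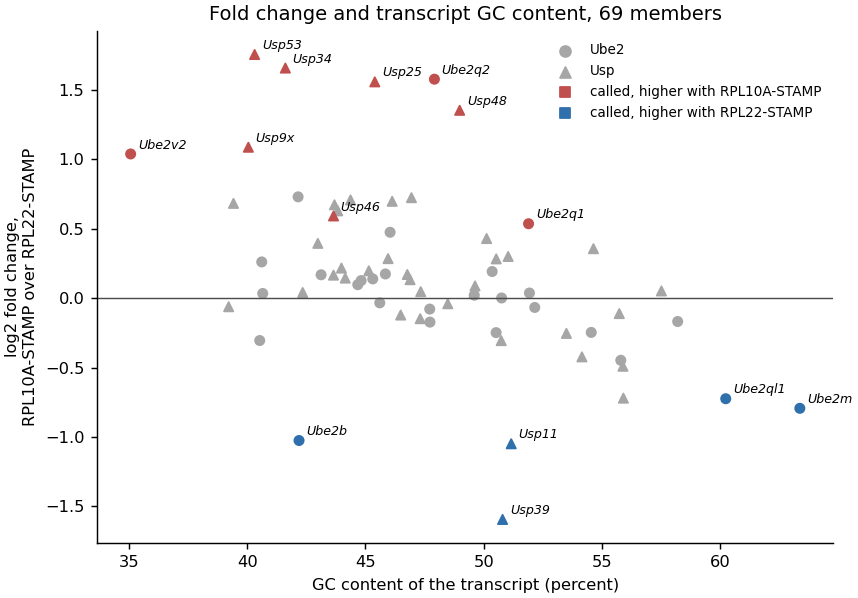
log2 fold change (RPL10A-STAMP over RPL22-STAMP) against the GC content of the transcript (percent) for 69 members, circles for *Ube2* and triangles for *Usp*, called members coloured and named. Fold changes tend to be lower at higher GC (rho -0.52), with *Ube2b* at 42.2% GC well below its neighbours.

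Other genes of the pathway were read from the same fit by lists, which were chosen with earlier results of these data known. Of 25 tested HECT ligases, which receive ubiquitin from E2s before passing it on, 12 (48.0%) were called higher with RPL10A-STAMP, against 0 higher with RPL22-STAMP. No HECT ligase was higher with RPL22-STAMP at an unadjusted p under 0.05 either, by limma or by the two-sample test of the study's methods. Over all tested genes these shares were 8.51% and 5.77%. The 12 calls fell to 6 without RPL10A-STAMP replicate 2 or replicate 3, to 7 with the GC trend removed and to 3 with the replicate block as well. Over all genes, the calls higher with RPL10A-STAMP fell from 685 to 255, 231, 359 and 133 in these 4 fits. Their median log2 fold change was 0.51, against -0.01 over all tested genes. *Ube3a*, the ligase lost in Angelman syndrome, had EPRs of 0.0468, 0.0625 and 0.0659 with RPL10A-STAMP, against 0.0139, 0.0184 and 0.0185 with RPL22-STAMP. Its log2 fold change was 1.05 (SE 0.12, limma adjusted p = 0.00472). *Herc1*, a giant HECT protein, was at 0.0374, 0.0666 and 0.0667 against 0.00846, 0.0171 and 0.00943, with a log2 fold change of 1.35 (SE 0.17, limma adjusted p = 0.00516). Of 7 tested E1 enzymes and partners, 1 was called (14.3%, against 8.51% of all tested genes), the NEDD8 E1 subunit *Uba3* (log2 fold change 0.62, limma adjusted p = 0.0337), while *Uba1*, the main ubiquitin E1, was at -0.09 (limma adjusted p = 0.637). Of 27 tested deubiquitinases outside the *Usp* family, 3 were called higher with RPL10A-STAMP (*Mindy3*, *Brcc3* and *Otud6b*) and 1 higher with RPL22-STAMP (*Otub1*). Of the 4 genes that encode ubiquitin, *Rps27a* was called, higher with RPL22-STAMP. A list of 6 USP partners gave 1 call higher with RPL22-STAMP (16.7%, against 5.77% of all tested genes). This was again *Otub1*, which is itself a deubiquitinase and is already counted above. *Wdr48*, which binds USP46 and USP12, was not called (log2 fold change 0.34, limma adjusted p = 0.139). *Ube3a*, *Herc1*, *Uba3*, *Uba1* and the deubiquitinases were named here after their values were seen.

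**Figure D5:**
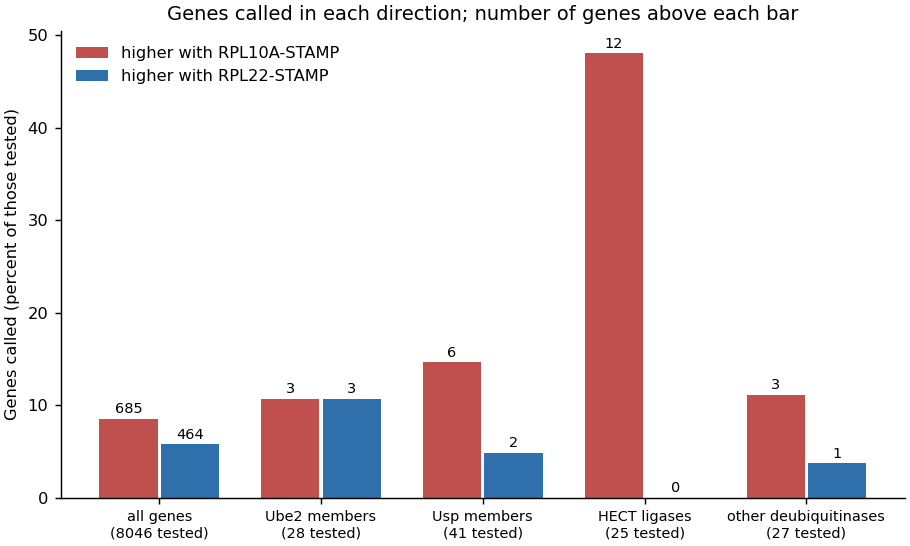
Share of tested genes (percent) called higher with RPL10A-STAMP (red) or with RPL22-STAMP (blue) among all genes, *Ube2* members, *Usp* members, HECT ligases and other deubiquitinases; the number of genes stands above each bar. The members (3 and 3 of 28, 6 and 2 of 41) lie near the all-gene shares of 8.51% and 5.77%, and the HECT ligases at 48.0% and 0.

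Markers of the labelled cells were edited, but EPR is a per-read quantity and does not measure how abundant a cell type was. The summed EPRs cover lists of different size and are not compared between cell types. All 10 neuron markers were edited in every library, and their summed unscaled EPR was 0.269 to 0.330 with RPL10A-STAMP, against 0.236 to 0.301 with RPL22-STAMP. In the scaled fit 0 of the 10 were called higher with RPL10A-STAMP, against 8.51% of all tested genes. Higher with RPL22-STAMP were 2 (20.0%, against 5.77%), *Camk2a* (log2 fold change -0.79, limma adjusted p = 0.0127) and *Gad2* (-0.54, limma adjusted p = 0.0446). The median log2 fold change of the 10 was -0.09. Astrocyte markers were also edited in every library for 4 of 5 genes, with a summed EPR of 0.140 to 0.238 and 0.109 to 0.197. The promoter was meant for expression in neurons, and background editing is not subtracted here. Of 5 oligodendrocyte lineage markers, *Mbp* was edited in all 6 libraries and 3 others in some, while *Mog* was listed at 0, with a summed EPR of 0.0175 to 0.115 and 0.0563 to 0.0919. Of 5 microglia markers 3 and of 4 dividing-cell markers 2 were listed at 0 throughout, and their part in any result was not tested.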

How the data were processed

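Per the study's methods, single-end reads of 6 polyA libraries were trimmed (cutadapt) and mapped to mm10 (STAR, keeping reads with at most 10 alignments). SAILOR found the C-to-U edits and featureCounts the reads of each gene. The authors deposited their ratio, EPR, per gene and without scaling between libraries. Their gene annotation is not given in the sources used here. Reads per gene are unknown, so no counting interval or detection limit is given, and sequencing depth could not be compared between libraries.

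Of 31053 identifiers, 31011 were found in GENCODE mouse release 21, which gave symbols, transcripts (longest coding sequence) and GRCm38 coordinates. To put libraries on 1 scale, EPR was divided by the library's median over the 8046 genes with edits in all 6, and then multiplied by these medians' geometric mean (net factors 0.777 to 1.38). log2(EPR + 0.01) was fitted with limma 3.58.1 (lmFit, eBayes with a variance trend) in R 4.3.3, with Benjamini-Hochberg adjustment at 0.05. This script was tested on simulated data. Without the scaling, the median log2 fold change of all tested genes moved from -0.01 to 0.18, and the share of calls higher with RPL10A-STAMP from 59.6% to 88.1%. Trends with GC content or length were removed with splines of 4 degrees of freedom. Repeated sequence was searched with BLAST 2.17.0. Paralog ratios were compared with an exact permutation test over 20 labelings. Alternatives were 2 other pseudocounts, no scaling, 2 other filters, no variance trend, the two-sample test of the study's methods, a block for the replicate number, trends removed, and each library left out.

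Genes named with values were the called members, the 5 highest and 5 lowest levels, the paralog pairs, 10 chosen enzymes, members with an EPR above 1 and members at 0 throughout 1 construct. One gene covered by this rule is not reported here. The members and lists were chosen with earlier results of these data known. Libraries with the same replicate number did not deviate together (correlations of deviations from the group means 0.04, 0.05 and -0.01), so the numbers do not pair them. Python 3.11.15 with Biopython and scipy was used.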

Additional observations from a re-analysis of the deposited data

How the results depend on the processing

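The direction of each of the 14 called members and of *Ube2a* was the same in every alternative run. Of 255 alternative values for these 15 genes, 190 stayed on the same side of the threshold, 62 were no longer past it and 3, all of *Ube2a*, came to be past it. When 1 library was left out, 6 to 9 members were called higher with RPL10A-STAMP, of which 6 or 7 were among the original 9, as *Usp46* and *Ube2q1* lost their calls in all 6 such fits. Of the 5 called higher with RPL22-STAMP, between 1 and 5 kept their calls. The lowest values for RPL22-STAMP came without RPL10A-STAMP replicate 2 (1 member) and replicate 3 (2 members), and the cause was not tested. Without the division by the library median, 12 and 2 members were called, since that step sets the zero of the comparison. With the replicate number as a block, 6 and 5 members were called in these directions, and with both the GC trend removed and the replicate block 3 and 1. That block lowered the calls over all genes from 685 and 464 to 370 and 233. The two-sample test of the methods on unscaled EPR called 0 members and 0 genes after adjustment, with 26 members and 1996 genes at an unadjusted p under 0.05. The median member log2 fold change, 0.13, was 0.020 with a pseudocount of 0.1, 0.32 without the division and 0.047 with the GC trend removed, with or without the block, while leaving out 1 library gave 0.07 to 0.16. HECT ligases called higher with RPL10A-STAMP numbered 12, between 6 and 9 without 1 library. Over all genes, leaving out 1 library gave 231 to 522 and 142 to 352 calls. Of 77 alternative values of the paralog ratios, 73 moved by less than the spread between libraries and none of the non-overlapping pairs changed sign. The other 4 came from adding 0.01 to both values of a pair, which gave 1.71 for *Ube2a*/*Ube2b*, 1.30 for *Usp4*/*Usp11*, 1.39 for *Usp25*/*Usp28* and -1.06 for *Ube2q1*/*Ube2q2*. Unknown read numbers limit all values, and most of all those near 0.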
